A study of Mus musculus with 19 samples.

Results

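The nuclear-encoded respiratory chain genes of the mouse were followed through drug treatment of embryonic stem cells and through 5 days of blastoid culture. Members were taken by name: every gene symbol beginning with Nduf followed by a, b, c, s or v and a number, Sdha to Sdhd, Uqcr, Cox4 to Cox8 or Atp5, without those containing "-ps". This gave 88 genes of 54352 in the tables, 40 for complex I, 4 for complex II, 8 for complex III, 19 for complex IV and 17 for complex V. The name pattern alone had matched 96. The rule itself used no measured value, but members were chosen with earlier results of these data known. The genes are referred to by complex as their symbols place them, so Ndufa4, which is now regarded as a subunit of complex IV, is counted with complex I.

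The samples came from TT2, a mouse embryonic stem cell line grown on a layer of inactivated fibroblasts (feeder cells). The 19 libraries were made from polyadenylated RNA with Smart-seq2, a full-length cDNA method with PCR. In 2D culture there were 2 untreated libraries and 2 libraries of cells exposed to 20 nM pladienolide B (PlaB), a small-molecule splicing inhibitor whose target is SF3B1, during the last 6 h before harvest at 54 h after seeding. The other 15 libraries, 3 per day, came from blastoids, aggregates that resemble a blastocyst, on days 1 to 5. The labels list all of them as treated with 20 nM PlaB for 6 h. There was no untreated blastoid. TT2 is 1 line, and nothing in the labels says whether replicates were separate cultures, so all p-values rest on the variation among these libraries, which may be technical.

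Complex I takes electrons from NADH, complex II from succinate; both pass them through ubiquinone to complex III, and from there by cytochrome c to complex IV, which reduces oxygen. Complexes I, III and IV pump protons across the inner mitochondrial membrane, and complex V, the ATP synthase, uses that gradient to make ATP. Most subunits are encoded in the nucleus, but the core of each proton-pumping machine also holds subunits from mitochondrial DNA, so both genomes must be expressed. Mouse naive stem cells and the early embryo have few mitochondrial cristae, and respiration rises as the blastocyst forms.

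The ends of the coding sequences show how base composition varies among the members that changed most under PlaB. The last 90 coding bases (GENCODE M21 transcripts, without the stop codon) are given for the 4 members with at least 10 CPM that rose most and the 4 that fell most, with G and C in capitals. The first 4 are those that rose and the last 4 those that fell.
Ndufs7: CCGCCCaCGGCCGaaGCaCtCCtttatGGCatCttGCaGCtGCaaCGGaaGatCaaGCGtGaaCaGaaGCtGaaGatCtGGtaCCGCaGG
Atp5d: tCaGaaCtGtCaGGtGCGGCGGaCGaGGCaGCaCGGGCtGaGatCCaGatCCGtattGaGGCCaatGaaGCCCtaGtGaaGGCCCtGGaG
Uqcrc1: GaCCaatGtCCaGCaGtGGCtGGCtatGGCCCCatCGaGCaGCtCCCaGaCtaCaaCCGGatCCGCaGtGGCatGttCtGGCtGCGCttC
Ndufs8: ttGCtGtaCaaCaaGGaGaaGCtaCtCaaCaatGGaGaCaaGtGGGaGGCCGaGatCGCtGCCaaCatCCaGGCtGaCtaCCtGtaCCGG
Uqcrb: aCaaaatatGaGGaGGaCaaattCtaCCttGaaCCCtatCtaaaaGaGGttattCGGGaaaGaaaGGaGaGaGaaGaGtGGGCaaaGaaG
Atp5j: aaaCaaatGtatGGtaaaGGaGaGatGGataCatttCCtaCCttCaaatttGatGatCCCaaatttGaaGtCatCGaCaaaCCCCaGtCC
Ndufa5: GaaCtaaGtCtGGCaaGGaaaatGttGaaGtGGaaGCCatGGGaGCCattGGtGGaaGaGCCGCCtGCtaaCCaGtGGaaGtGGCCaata
Cox7c: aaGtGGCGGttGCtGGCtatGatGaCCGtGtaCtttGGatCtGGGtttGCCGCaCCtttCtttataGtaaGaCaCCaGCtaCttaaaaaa

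G and C filled 51 of these 90 positions in Ndufs7, 54 in Atp5d, 55 in Uqcrc1 and 48 in Ndufs8. They filled 36 in Uqcrb, 34 in Atp5j, 46 in Ndufa5 and 40 in Cox7c. Across the members called higher under PlaB the median was 51 (37 members, 39 to 58), and across those called lower it was 40 (9 members, 34 to 46), so the ranges overlapped. Over the whole transcript the groups also overlapped, with Sdhc, which rose, at 48.7% GC and Atp5j, which fell, at 56.0%. In the coding part alone Sdhc was at 53.65% and Atp5j at 43.52%.

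The members made up a similar part of the RNA in every group but one library stood apart. They took 2.58% and 2.53% of the counts in the control libraries, 2.76% in each PlaB library, and between 2.34% and 3.50% in 14 of the 15 blastoid libraries. In blastoid day 3 replicate 3 they took 2.03%, while the 13 mitochondrially encoded subunits took 12.1% of its counts, against 2.31% to 5.70% in the other blastoid libraries. Library totals ran from 2515381 to 7607021 counts. CPM below are counts scaled by library size and TMM factor over all libraries. Summed over 16 feeder fibroblast markers, the level was 2014 and 2588 CPM in control, 4800 and 6367 CPM in PlaB, 387 to 694 CPM on day 1 and 35.3 to 52.7 CPM on day 5. On day 5 the mean of each of the 10 pluripotency markers was 10 CPM or more. The 11 trophectoderm markers summed to 1129 to 2115 CPM on day 5, with 8 at a mean of 10 CPM or more, and to 86.9 and 117 CPM in control. In such bulk samples fewer cells of a type and less RNA per cell cannot be told apart.

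**Figure D1:**
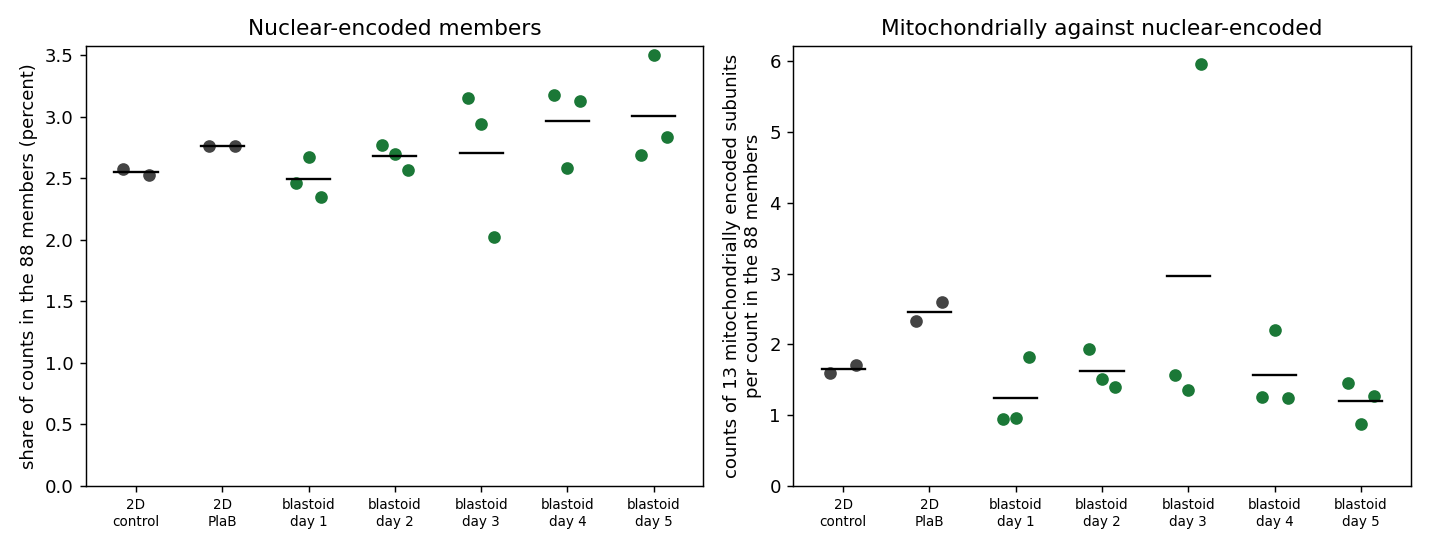
Left, the share of each library's counts in the 88 nuclear-encoded members, in percent; right, counts of the 13 mitochondrially encoded subunits per count in the members. Points are libraries and lines group means; the ratio was 2.33 and 2.59 in the PlaB libraries, above the 1.59 and 1.71 of control, and 5.96 in blastoid day 3 replicate 3.

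Counts per gene differed widely within a complex even though its subunits are assembled in fixed proportions. Per kilobase of annotated exon, the highest control levels were those of the small subunits Uqcrb (1190 ± 86.5 CPM per kb, SD, n = 2), Uqcr10 (1086 ± 100.2), Cox6b1 (1081 ± 7.56) and Cox7a2 (992 ± 88.7). Uqcr10 and Cox6b1 did not differ beyond their spread. The order depends on the length used: per kilobase of 1 reference transcript, Cox6c led (2098 ± 103 CPM per kb), ahead of Uqcrb (1949 ± 142), whereas Cox6c had 434 CPM per kb by merged exons. Among members with at least 10 CPM, the lowest by merged exons were Ndufs7 (6.45 ± 2.20 CPM per kb), an iron-sulfur subunit of complex I, and Ndufv1 (7.06 ± 0.419), which binds the flavin that accepts electrons from NADH. By day 5 Uqcrb still led by merged exons, at 1757 ± 577 CPM per kb (n = 3).

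Exposure to PlaB in 2D was followed by higher RNA levels of many members. Of 79 members tested, 37 rose and 9 fell at an adjusted p under 0.05 (edgeR). In the same test 51.7% of all 11183 genes were called, 25.9% higher and 25.8% lower. With both directions together the share of members called was near that of all genes. By direction, the share of members called higher was above that of all genes, and the share called lower was below it. The median log2 fold change was 0.23 over the tested members and 0.00 over all tested genes. The 9 members too low to test were Cox4i2, Cox6a2, Cox6c2, Cox7b2, Cox8b, Cox8c, Ndufa11b, Ndufb2 and Ndufs6b. The counts depended on base composition: with a correction of each library for the GC content of the transcripts, 25 members were higher and 19 lower. In that corrected fit 21.3% of all genes were lower, and the share of members called lower was not below it. Of the 46 calls 24 held, 19 were lost and 3 were made in the opposite direction, and 17 members were newly called.

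In complex I, 18 of 37 tested members were higher and 2 lower, and with the GC correction 10 were higher and 9 lower. Among members with at least 10 CPM, those that rose most were subunits of the arm that carries electrons from NADH to ubiquinone. Ndufs7, which holds the last iron-sulfur cluster of that chain, had 8.41 and 13.8 CPM in control and 104 and 90.9 CPM under PlaB, so that its log2 fold change was 3.13 ± 0.23 (SE; adjusted p = 1.8e-13). Ndufs8, another iron-sulfur subunit, had 32.6 and 41.3 CPM in control and 187 and 128 CPM under PlaB (2.09 ± 0.19, adjusted p = 3.5e-11). Ndufv1 had 19.4 and 17.8 CPM in control and 82.5 and 68.0 CPM under PlaB (2.01 ± 0.22, adjusted p = 1.4e-09). The groups did not overlap for any of these 3 genes. With the GC correction their log2 fold changes were 1.96, 1.39 and 1.10, still past the threshold. Ndufs1, the largest subunit of the same arm, had 105 and 106 CPM in control and 111 and 124 CPM under PlaB (0.15 ± 0.15, adjusted p = 0.41), and with the GC correction it was called higher, at 0.53.

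The 2 members of the complex I list that fell were Ndufa5, an accessory subunit, and Ndufa4. Ndufa5 had 248 and 230 CPM in control and 159 and 173 CPM under PlaB (-0.53 ± 0.14, adjusted p = 0.0016). Ndufa4 had 1166 and 1084 CPM in control and 775 and 814 CPM under PlaB (-0.51 ± 0.12, adjusted p = 0.0007). Its libraries did not overlap, but with the GC correction the change was -0.09 and no longer passed. Ndufa4l2, the paralogue of Ndufa4 known as a target of hypoxia signalling, had 0 and 1 counts in control and 32 and 13 counts under PlaB. That is a ratio of 70.9 with a 95% counting interval from 12.1 to 2860, which covers counting error only. Of 15 tested feeder markers 14 were higher and 0 lower in the PlaB libraries, and the part of feeder RNA in this result was not tested.

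Complex II, which is also an enzyme of the citric acid cycle, has no mitochondrially encoded subunit, and 3 of its 4 members rose. Sdhc and Sdhd anchor the complex in the membrane, and Sdhb carries its iron-sulfur clusters. Sdhc had 39.8 and 39.1 CPM in control and 123 and 130 CPM under PlaB (1.67 ± 0.17, adjusted p = 4.3e-10). Sdhb had 110 and 177 CPM in control and 459 and 422 CPM under PlaB (1.62 ± 0.16), and Sdhd 167 and 211 against 436 and 429 CPM (1.19 ± 0.14). In all 3 the libraries of the groups were apart. The flavoprotein subunit Sdha overlapped between the groups, at 94.6 and 113 CPM in control and 111 and 123 CPM under PlaB (0.18 ± 0.16, adjusted p = 0.35). With the GC correction the same number of complex II members, 3, was called higher and none lower.

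Complex III held the member with the smallest adjusted p, and 3 of its 8 members rose and 2 fell (3 and 3 with the GC correction). Uqcrc1, a core protein on the matrix side, had 31.1 and 31.3 CPM in control and 199 and 193 CPM under PlaB (2.65 ± 0.17, adjusted p = 2.6e-15). The Rieske iron-sulfur protein Uqcrfs1 rose from 132 and 123 CPM to 232 and 248 CPM (0.91 ± 0.14). The partner core protein Uqcrc2 had 173 and 191 CPM in control and 208 and 215 CPM under PlaB (0.22 ± 0.14, adjusted p = 0.19; 0.62 with the GC correction, called higher). In the other direction, Uqcrb, a small subunit at the ubiquinone-reducing site, fell from 1096 and 989 CPM to 607 and 748 CPM (-0.63 ± 0.13, adjusted p = 9.2e-05). Uqcrh, the hinge protein, fell from 677 and 592 CPM to 461 and 440 CPM (-0.50 ± 0.13). Uqcrb was at -0.16 with the GC correction and did not pass, while Uqcrh was at -0.54 and did.

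In complex IV, 6 of 13 tested members rose and 3 fell (3 and 2 with the GC correction), and the small subunits went different ways. Cox4i1, the ubiquitous form of the largest nuclear subunit, had 361 and 396 CPM in control and 935 and 733 CPM under PlaB (1.14 ± 0.13, adjusted p = 5.2e-09). Cox6a1 rose by 1.14 ± 0.13 and Cox8a by 0.95 ± 0.12. None of these 3 passed with the GC correction, at 0.09 for Cox4i1, 0.03 for Cox6a1 and -0.14 for Cox8a. Cox5a, with 150 and 121 CPM in control and 141 and 136 CPM under PlaB, overlapped between the groups (0.02 ± 0.15). Cox7c fell from 1042 and 971 CPM to 648 and 769 CPM (-0.51 ± 0.12), and Cox6c and Cox7a2 fell by 0.47 and 0.40 on the log2 scale. Cox7c (-0.23) and Cox6c (-0.22) did not pass with the GC correction, and Cox7a2 was at -0.73.

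In complex V, 7 of 17 members rose and 2 fell, and with the GC correction 6 rose and 5 fell. Atp5d, the delta subunit of the central stalk, had 11.2 and 21.3 CPM in control and 173 and 99.6 CPM under PlaB (3.07 ± 0.30, adjusted p = 1.7e-06), the largest change in the complex. Atp5b, the catalytic beta subunit, rose from 564 and 639 CPM to 1467 and 1486 CPM (1.29 ± 0.12), and Atp5a1, the alpha subunit, from 360 and 353 CPM to 586 and 675 CPM (0.82 ± 0.13). Atp5j, a subunit of the peripheral stalk, fell from 1020 and 979 CPM to 623 and 695 CPM (-0.60 ± 0.12, adjusted p = 9.4e-05). The reference transcript used for Atp5j is GC-rich (56.0%), while its coding part is at 43.52% GC. With the GC correction, which took the whole transcript, the fall was larger, at -1.44, a value that depends on the transcript chosen. Part of Atp5j (182 bases of its transcript) lies opposite an exon of Gabpa, whose own level also fell, and no source used here gives the strand setting of the counting, so reads from that stretch cannot be assigned to either gene.

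**Figure D2:**
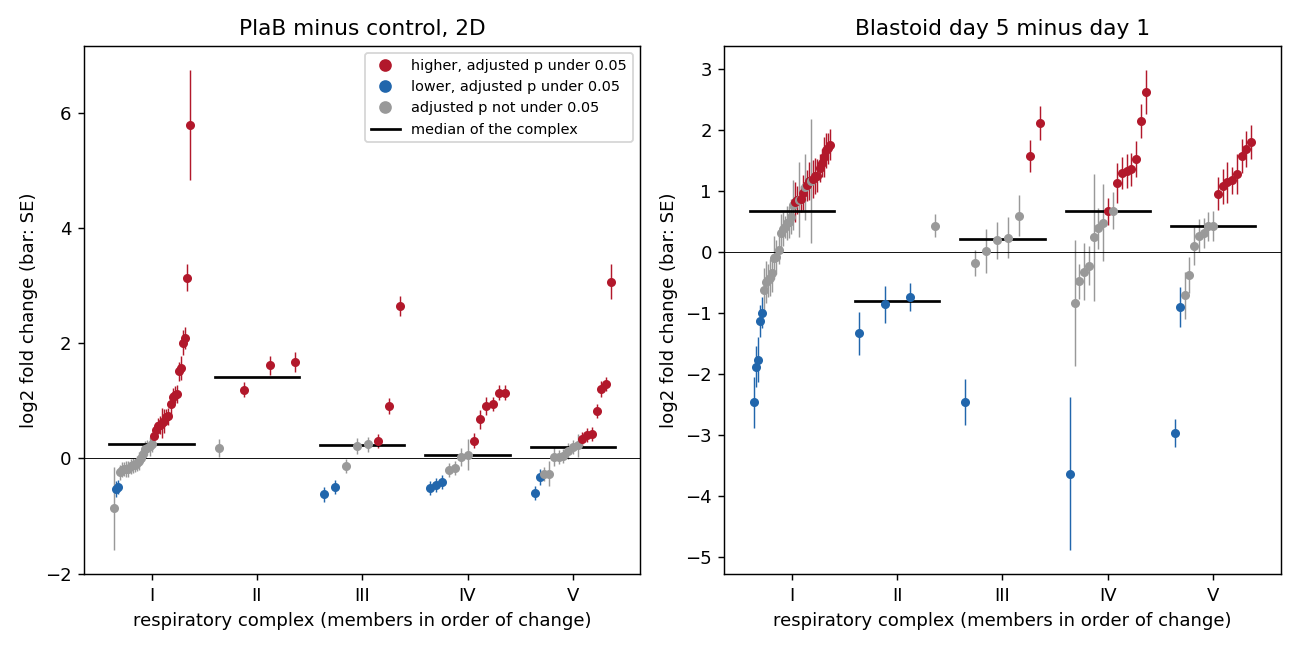
Log2 fold change of each tested member, with its standard error, by respiratory complex, for PlaB against control in 2D (left) and blastoid day 5 against day 1 (right). Red and blue points passed the adjusted p threshold of 0.05, grey points did not, and black lines are medians of a complex; complex II had a median of 1.41 under PlaB and -0.79 between days 1 and 5.

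The c ring of ATP synthase shows the same protein made from 3 genes with different levels. Atp5g1, Atp5g2 and Atp5g3 encode the same mature c subunit. The last 90 coding bases of the 3 genes differ at 24 positions, which are in capitals below and show that reads from these stretches can be told apart.
Atp5g1: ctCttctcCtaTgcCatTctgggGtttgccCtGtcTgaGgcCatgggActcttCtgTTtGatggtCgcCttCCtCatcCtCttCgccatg
Atp5g2: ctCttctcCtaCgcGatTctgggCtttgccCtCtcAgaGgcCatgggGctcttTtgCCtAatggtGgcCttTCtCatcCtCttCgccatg
Atp5g3: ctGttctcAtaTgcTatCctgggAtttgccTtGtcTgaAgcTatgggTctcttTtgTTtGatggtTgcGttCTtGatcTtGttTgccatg

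Atp5g2 had 108 and 112 CPM in control and 277 and 232 CPM under PlaB (1.20 ± 0.15, adjusted p = 1.2e-08), and with the GC correction it was at 0.30 and did not pass. Atp5g1 had 527 and 526 CPM in control and 735 and 667 CPM under PlaB (0.41 ± 0.12, adjusted p = 0.0058). Atp5g3, with the highest counts of all members over the series, had 1305 and 1226 CPM in control and 1323 and 1295 CPM under PlaB (0.05 ± 0.12, adjusted p = 0.77). Between blastoid days 1 and 5 Atp5g2 fell, from 153 to 164 CPM to 73.1 to 86.2 CPM (-0.90 ± 0.32, adjusted p = 0.026; -0.11 with the GC correction, not passed). On those days Atp5g1 changed by -0.71 ± 0.38 (adjusted p = 0.13) and Atp5g3 by 0.10 ± 0.32 (adjusted p = 0.81). Differences between the 3 genes were not tested. Atp5g2 has 2 near-identical copies elsewhere in the genome (Gm10175 and Gm10231), so its counts are less certain.

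Several of the members that rose most are neighbours. Atp5d (chr10:80138632-80145818) and Ndufs7 (chr10:80249121-80256794) are 103 kb apart, and Ndufs8 (chr19:3908863-3912774) and Ndufv1 (chr19:4007384-4012806) are 94.6 kb apart, in GRCm38. Ndufs7 also lies within 200 kb of Uqcr11, which did not pass (0.24) and was called lower with the GC correction (-0.88). These pairs were looked at after the values were seen.

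The change under PlaB went with the GC content of the transcript among members and among all genes alike. Across 78 tested members with an annotated transcript, Spearman's rho between GC content and log2 fold change was 0.55, and across 11114 genes it was 0.44; these are descriptions across genes, which are not independent replicates. Of 27 members with a GC content of 54% or more, 21 rose and 1 fell, with a median of 0.95 against 1.04 for all genes in that range. Of 10 members under 46%, 0 rose and 2 fell, with a median of -0.14 against -0.46 for all such genes. Genes in the upper quartile of GC content stood lower than those in the lower quartile in the control libraries (-1.17 and -0.97 on the log2 scale, relative to the mean over libraries) and not in the PlaB libraries (0.25 and 0.09). Whether this reflects the libraries or the cells cannot be told apart here.

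**Figure D3:**
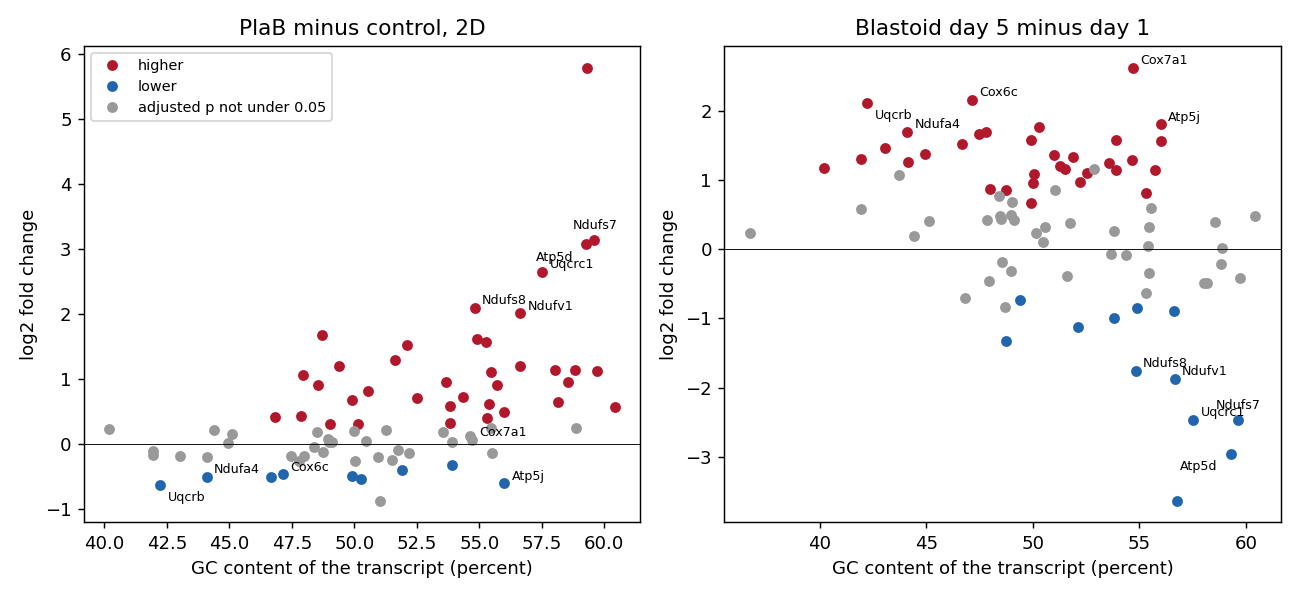
Log2 fold change of each tested member against the GC content of its transcript in percent, for PlaB against control (left) and blastoid day 5 against day 1 (right). Points are coloured by call; Ndufs7, Atp5d and Uqcrc1 lie at the GC-rich end and rose by 2.65 to 3.13 under PlaB on the log2 scale, and Uqcrb lies at the GC-poor end with -0.63.

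Genes that work with the members were counted from lists chosen together with the members, where 25.9% of all genes rose and 25.8% fell. All 10 tested subunits encoded in mitochondrial DNA were higher under PlaB, with a median log2 fold change of 0.99. Examples are mt-Nd5 (1.36 ± 0.12) of complex I and mt-Cytb (1.04 ± 0.12) of complex III. Of 8 further nuclear subunits and carriers 5 rose and 2 fell. Cyc1, the haem-bearing cytochrome c1 of complex III, rose by 2.05 ± 0.17, and Cycs, cytochrome c itself, fell by 0.77 on the log2 scale. Among complex IV assembly factors 5 of 15 rose and 1 fell, among those of complex I 4 of 15 rose and 3 fell, and among those of complexes II, III and V 2 of 13 rose and 3 fell, shares near or below those of all genes. Of 18 enzymes of the citric acid cycle and pyruvate dehydrogenase, 9 rose and 3 fell. Among those that rose were Idh3g (1.90 ± 0.16) and Mdh2 (1.71 ± 0.17), and the largest log2 fold change in the list was 2.43.

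Of 9 tested regulators of mitochondrial biogenesis, 0 rose, 6 fell and 3 did not pass, with a median of -0.84, where 25.8% of all genes fell. No difference from the members was tested. Yy1, a zinc finger factor that binds many such promoters, fell by 1.25 on the log2 scale (SE 0.16, adjusted p = 6.5e-08). Tfam, which packages and transcribes mitochondrial DNA, fell by 0.84, and Tfb1m and Gabpa by 1.67 and 0.73. Nrf1, named here because its binding motif was searched, changed by -1.26 ± 0.33 (adjusted p = 0.0018).

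Motifs of 3 of these factors were counted in the promoters. RefSeq promoter windows (GRCm38.p6, 250 bases before to 50 bases after the start) were found for 68 members, in 73 windows, and were searched on both strands for the NRF1 motif, the GABPA motif CCGGAAG and the YY1 motif. The NRF1 motif was in 24.7% of member windows and 4.6% of all 32851 windows, the GABPA motif in 21.9% and 8.86%, and the YY1 motif in 5.48% and 0.99%. At least 1 of the 3 was in 32 of the 68 members, and motifs of different factors overlapped in 0 windows. The 120 bases before the start are printed for Sdhd (chr9:50603850-50603969, minus strand), which rose under PlaB, and Uqcrh (chr4:116075071-116075190, minus strand), which fell, with motif matches in capitals.
Sdhd: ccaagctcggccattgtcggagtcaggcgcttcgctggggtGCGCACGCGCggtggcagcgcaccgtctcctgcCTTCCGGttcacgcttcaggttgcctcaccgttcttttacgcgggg
Uqcrh: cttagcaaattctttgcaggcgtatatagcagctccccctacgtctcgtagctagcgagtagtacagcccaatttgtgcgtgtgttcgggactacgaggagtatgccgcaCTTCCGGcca

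Sdhd carries an NRF1 and a GABPA match and Uqcrh a GABPA match, so a member that rose and a member that fell hold the same motif. A match describes letters in the window and says nothing of binding.

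Over the 5 days of blastoid culture 51 of 84 tested members differed between days (edgeR, adjusted p under 0.05), against 68% of all 15121 tested genes. They were 21 of 38 in complex I, 4 of 4 in complex II, 3 of 8 in complex III, 12 of 17 in complex IV and 11 of 17 in complex V. The smallest adjusted p values were those of Atp5d (6.7e-10), Cox7a1 (3.5e-06) and Ndufs7 (5.8e-06). The highest group mean fell on day 5 for 34 members, on day 3 for 18 and on day 1 for 14. The lowest fell on day 1 for 44 members, on day 3 for 27 and on day 5 for 11. Day 3 means include replicate 3, in which most members were low, and no such counts are given for all genes.

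**Figure D4:**
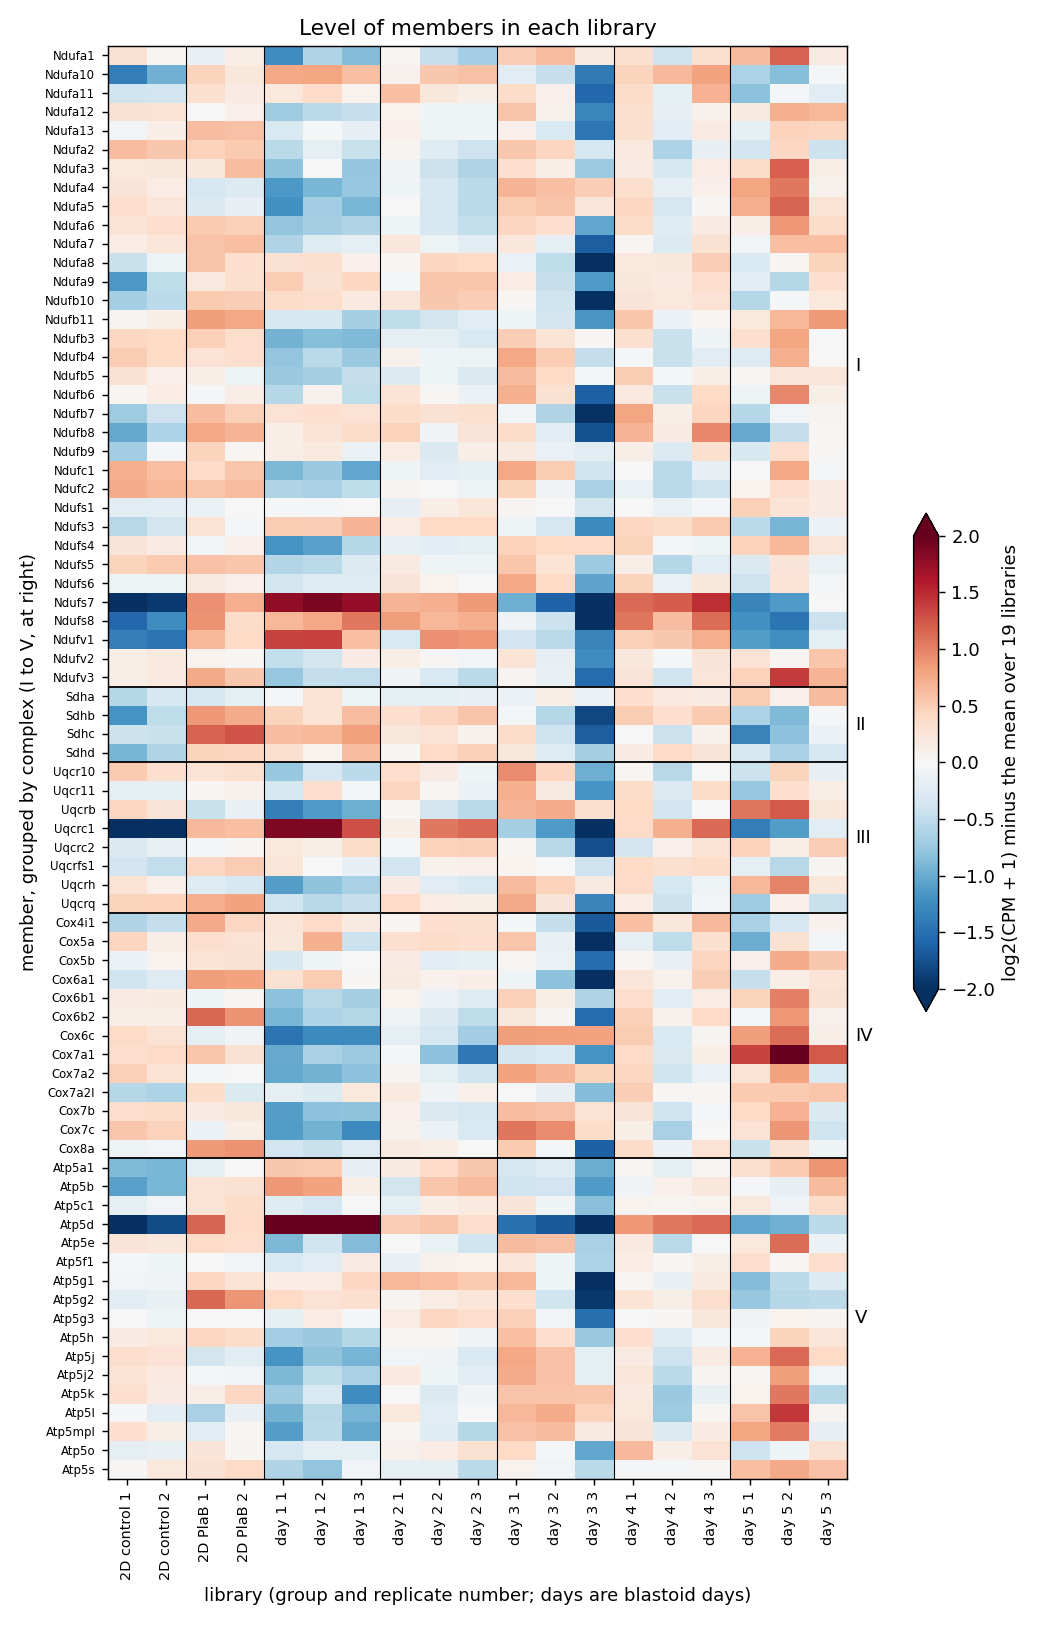
Level of members with a mean of at least 10 CPM (1 is not shown) in each of the 19 libraries, as log2(CPM + 1) minus its mean over all libraries, with members ordered by complex. Ndufs7, Uqcrc1 and Atp5d are low in control and high on day 1, many small subunits are low on day 1, and blastoid day 3 replicate 3 is low for most members.

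From day 1 to day 5, 33 of 84 tested members rose and 12 fell, where 25.5% of all genes rose and 25.5% fell (51% in all). The median was 0.48 for the members and -0.02 for all tested genes. Without blastoid day 3 replicate 3, an alternative added after seeing the data, 42 rose and 15 fell. With the GC correction 41 rose and 9 fell, and 42 of the 45 calls held. Scaling by total counts alone gave 20 that fell, where 34% of all genes fell. It moved the median of all genes by -0.34, so that the direction of small changes is relative to the scaling.

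The largest rises were in small subunits. Cox7a1, the form of subunit VIIa known from heart and skeletal muscle, had 7.47, 9.87 and 9.29 CPM on day 1 and 42.8, 74.7 and 38.8 CPM on day 5 (2.63 ± 0.36, adjusted p = 7.8e-06). Cox6c had 442, 507 and 503 CPM on day 1 and 2185, 2664 and 1323 CPM on day 5 (2.16 ± 0.28). Uqcrb had 321, 377 and 417 CPM on day 1 and 1726, 1923 and 967 CPM on day 5 (2.12 ± 0.28). The groups did not overlap, although replicate 3 was the lowest library of day 5 for each. Atp5j rose by 1.81 ± 0.27, Ndufa5 by 1.76 ± 0.26 and Ndufa4 by 1.70 ± 0.26. Cox7c (1.53), Cox6b1 (1.36) and Uqcrh (1.58) rose as well.

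Those that fell included the same electron-carrying and core subunits that were higher under PlaB. Atp5d had 342, 398 and 307 CPM on day 1 and 36.7, 38.9 and 52.7 CPM on day 5 (-2.96 ± 0.23, adjusted p = 2.3e-08). Ndufs7 had 190, 205 and 188 CPM on day 1 and 21.4, 24.6 and 54.8 CPM on day 5 (-2.47 ± 0.42). Uqcrc1 had 465, 468 and 313 CPM on day 1 and 48.2, 58.3 and 110 CPM on day 5 (-2.46 ± 0.38). For each of these genes every day 5 library lay below every day 1 library. Ndufv1 changed by -1.88 ± 0.34, Ndufs8 by -1.76 ± 0.37 and Sdhc by -1.33 ± 0.35, and all 6 still passed with the GC correction, at -1.96 to -1.10. In complex II 0 members rose and 3 of 4 fell. Sdhb, which fell by 0.85 on the log2 scale, was at -0.29 with the GC correction and no longer passed (adjusted p = 0.38).

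The 2D comparison and the comparison of day 5 with day 1 use different libraries. Of the 12 members lower on day 5, 11 (all but Cox4i2, which was not tested in 2D) were higher under PlaB, which is 11 of the 37 that rose there. Of the others that rose under PlaB, 5 also rose by day 5, 20 did not pass and 1 was not tested. All 9 members that fell under PlaB were among the 33 that rose by day 5. Opposite calls were common among all 10962 genes tested in both comparisons: 44% of the genes lower on day 5 were higher under PlaB, and 40.2% of those lower under PlaB were higher on day 5. Among genes that work with the members, 2 of 11 tested mitochondrially encoded subunits rose and 1 fell by day 5. Assembly factors of complex IV rose in 2 and fell in 8 of 17 cases, and those of complex I in 1 and 6 of 15. Cyc1 changed by -2.29 ± 0.34 and Cycs by 1.05 ± 0.24. Of 11 regulators 2 rose and 3 fell, and Yy1, lower under PlaB, rose by 2.38 ± 0.28. In both comparisons of members the change also went with GC content, with Spearman's rho of -0.40 across 81 members and -0.35 across 15017 genes for day 5 against day 1.

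**Figure D5:**
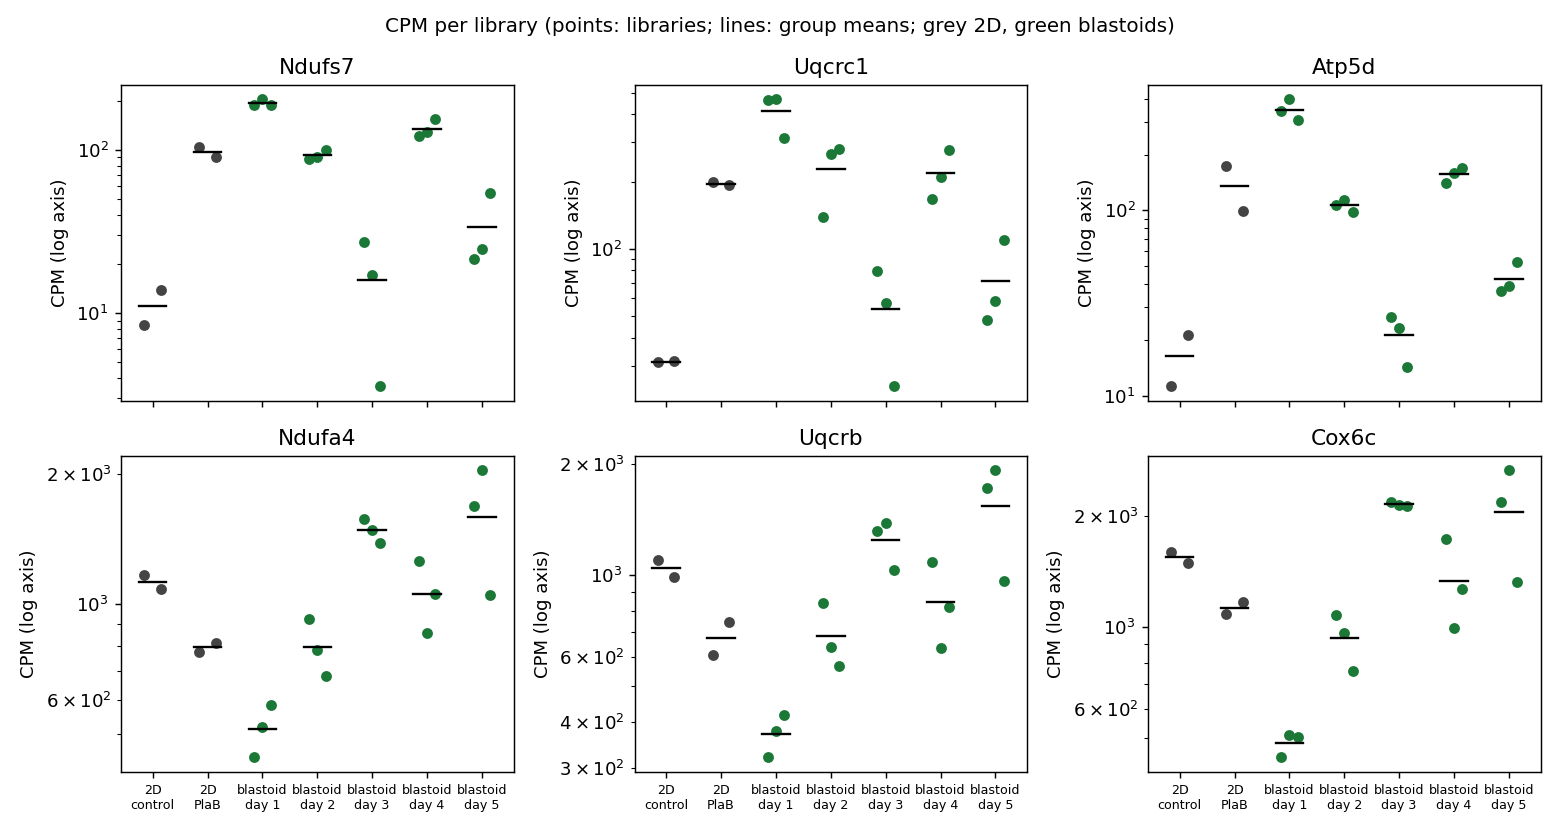
CPM on a log axis in every library for 3 members that rose under PlaB (top: Ndufs7, Uqcrc1, Atp5d) and 3 that fell (bottom: Ndufa4, Uqcrb, Cox6c), with points for libraries and lines for group means. The top 3 are lowest in control and on days 3 and 5, and the bottom 3 are lowest on day 1.

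The alternative forms of subunits were followed as pairs. Cox4i2, the form of subunit IV known from lung and low oxygen, had 0 counts in both control libraries and 17 counts in all under PlaB, at least 8.92-fold higher against a floor of 3 counts over the group. It had 12, 1 and 11 counts on day 1 and 0, 0 and 1 on day 5. Summed, 24 counts against 1 gave a ratio of 17.3 with a counting interval from 2.81 to 710, which covers counting error only. Day 1 replicate 2, at 0.235 CPM, was near day 5 replicate 3, at 0.189 CPM. Between these days 13 of 15 tested feeder markers fell. On day 4, when feeder markers summed to 22.6 to 116 CPM, Cox4i2 still had 4, 1 and 11 counts; the part of feeder RNA was not tested. Cox4i1, by contrast, had 351 to 584 CPM on day 5 against 626 to 719 CPM on day 1 (-0.48 ± 0.29, adjusted p = 0.18). Cox6b2, the testis-associated form of subunit VIb, was at 90.7 and 89.1 CPM in control and 184 and 154 CPM under PlaB (0.91 ± 0.15; 0.10 with the GC correction, not passed), and rose from day 1 to day 5 by 1.14 ± 0.33. Its partner Cox6b1 had 762 and 769 CPM in control and 639 and 699 CPM under PlaB (-0.20 ± 0.12, adjusted p = 0.18). Cox7a2l, which joins complexes III and IV into supercomplexes, rose in both comparisons (0.68 ± 0.17 and 0.67 ± 0.22). Cox6a2, Cox8b and Cox8c were near 0, with 17, 2 and 86 counts over all 19 libraries. Cox7b2, a testis-associated form, was low, with 0, 1 and 9 counts on day 1 and 30, 26 and 6 on day 3, and passed between blastoid days (adjusted p = 0.035).

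Other core subunits did not pass between days 1 and 5. Ndufs1 was at 0.41 ± 0.19, Sdha at 0.44 ± 0.19, Uqcrfs1 at -0.18 ± 0.21, Cox5a at -0.32 ± 0.47, Atp5a1 at 0.32 ± 0.24 and Atp5b at -0.38 ± 0.30, with adjusted p values from 0.058 to 0.59. An adjusted p of this size does not show that a level stayed the same.

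The steps between days were not in 1 direction. From day 1 to day 2, 3 members rose (Cox7c, Cox6c and Ndufs4) and Atp5d fell by 1.69 on the log2 scale, where 6.96% of all genes were called, 1.69% higher and 5.27% lower. Cox7c, Cox6c and Ndufs4 did not pass with the GC correction. The count of higher members was 0 or 1 in 6 fits that each left out a library of these days. It was 18 without blastoid day 3 replicate 3, where 4.42% of all genes were higher. From day 2 to day 3, 9 rose and 16 fell, where 25.6% of genes were called, 12% higher and 13.5% lower. Ndufs7 went from 88.6, 91.2 and 100 CPM to 27.4, 17.1 and 3.55 CPM (-2.50), and Cox6c from 1077, 965 and 758 CPM to 2181, 2151 and 2133 CPM (1.23). Without blastoid day 3 replicate 3, 15 rose and 8 fell, where 6.8% of all genes rose and 9.07% fell. The median of members turned from -0.03 to 0.18.

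From day 3 to day 4, 13 members rose and 1 fell, where 27.9% of genes were called, 15.6% higher and 12.3% lower. Ndufs7 rose to 121, 129 and 155 CPM (3.04), Atp5d rose by 2.86 and Uqcrc1 by 2.01, and Cox7c fell by 0.98 on the log2 scale. Without blastoid day 3 replicate 3, 10 fell, where 9.01% of all genes fell, and the median of members went from 0.12 to -0.11. From day 4 to day 5, 9 rose and 10 fell, where 28.6% of genes were called, 14.1% higher and 14.5% lower. Ndufs7 (-1.97), Ndufs8 (-1.91) and Atp5d (-1.84) fell most, and Cox7a1 rose by 1.63. Atp5d, Ndufs7 and Uqcrc1 thus fell by day 3, rose to day 4 and fell again to day 5. The GC-rich genes of each library moved the same way: relative to GC-poor genes they were at 0.13 to 0.25 on day 2, -1.24 to -0.46 on day 3, 0.42 to 0.67 on day 4 and -0.69 to 0.23 on day 5. The part of base composition in the steps was not tested beyond the correction.

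Day 1 blastoids were also set against the PlaB-treated 2D cells, a comparison that shares its libraries with those above. Of 85 tested members 2 were higher and 32 lower, where 21.9% of all genes were higher and 17% lower (38.9% in all), and the median was -0.55 against 0.14 for all genes. The 2 higher members were Atp5d (1.36 ± 0.28, adjusted p = 0.00053) and Uqcrc1 (1.08 ± 0.39, adjusted p = 0.033), and with the GC correction neither passed, at 0.55 and 0.39. The largest falls were those of Cox6b2 (-1.74 ± 0.33), Ndufc1 (-1.37 ± 0.28), Cox7a1 (-1.33 ± 0.38), Ndufb3 (-1.31 ± 0.24), Ndufb11 (-1.24 ± 0.26) and Uqcrq (-1.24 ± 0.34). Ndufb3, a small membrane-arm subunit, had 286 and 262 CPM in 2D and 106, 114 and 111 CPM on day 1, with no overlap. Ndufs1 (0.03 ± 0.20), Sdha (0.32 ± 0.21), Atp5a1 (0.42 ± 0.26) and Atp5b (0.33 ± 0.31) did not pass. None of the 4 complex II members was called.

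Across members, but not across all genes, the change on day 1 went with the number of introns more than with GC content. Spearman's rho with introns was 0.58 across 82 members and 0.19 across 16187 genes, and with GC content 0.10 and 0.26. Culture form, time and table differ together between these groups, so they cannot be told apart. Of the tested markers, 14 of 15 for feeder cells were lower on day 1 (median -3.40) and 5 of 9 for trophectoderm were higher, and their part in the result was not tested. Without either PlaB library the number of lower members was 17 or 14. With scaling by total counts alone 9 members were higher and 19 lower, where 29.5% of all genes were higher and 12% lower. The mitochondrially encoded subunits were lower too: 9 of 11 fell, with a median of -1.57, among them mt-Co1 (-2.14 ± 0.33).

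Counts of the 13 mitochondrially encoded subunits per count in the 88 members were 1.59 and 1.71 in control and 2.33 and 2.59 under PlaB. They were 0.937, 0.962 and 1.81 on day 1, 1.40 to 1.94 on day 2, 1.35 to 5.96 on day 3, 1.24 to 2.21 on day 4 and 1.46, 0.868 and 1.28 on day 5. In 2D the groups did not overlap, but with 2 libraries against 2 a two-sided exact permutation test cannot go below p = 0.333, so no test is given. The range of each blastoid day overlapped that of the next, and days 1 and 5 overlapped.

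Some members could not be read with confidence. Ndufb8 shares 134 bases and Ndufb9 shares 201 bases of transcript with another gene on the same strand (Gm20538 and Gm49356). Atp5o shares 243 bases with a second same-strand gene of its own symbol. With the strand setting unknown, overlaps with genes on the opposite strand leave counts uncertain too. Among these, the overlap covers 41.7% of the transcript of Cox5a, 39.0% of Ndufb6, 30.0% of Ndufa13, 26.6% of Uqcrc2 and 20.1% of Cox4i1. Ndufb2 held 205 counts over all libraries and overlaps Gm42420. Uqcrb has 3 near-identical copies, Atp5l 9 and Cox7c 1, and Cox6c2, Ndufb4c and Ndufs6b are themselves intronless copies of Cox6c, Ndufb4 and Ndufs6, so reads may have been split or dropped between them.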

How the data were processed

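The submitters' processing notes name STAR 2.7.10b, HTSeq 0.13.5 and the mm10 build. The values the authors deposited are raw counts per gene symbol, in 1 table for 2D culture and 1 for blastoids. The sources used here give neither the annotation release nor the strand setting. Libraries were grouped by title. Members and lists were chosen with earlier results of these data known.

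Genes were kept by filterByExpr (minimum count 10, minimum total 15) and tested with edgeR 4.0.16 (TMM scaling, quasi-likelihood F-test, Benjamini-Hochberg adjustment over all tested genes, threshold 0.05). The 4 2D libraries, the 15 blastoid libraries and, for day 1 against 2D PlaB, all 19 each had a fit of their own. The SE is the log2 fold change divided by the square root of F. Alternatives were RLE factors, total counts, no filter, DESeq2 1.42.0, a GC correction (spline of 4 degrees of freedom per library), a replicate block and leaving out libraries. The fits were tested on simulated data with known changes.

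Named were fixed core subunits, fixed isoform pairs, up to 6 members per direction (3 for steps between days) with the largest passing change, at least 10 CPM and no overlap, and up to 4 genes per list with the smallest adjusted p. Other genes named with values, such as Uqcrc2, Sdhd, Uqcr11, Nrf1 and, in 2D, Cox6c, were chosen after their values were seen. GENCODE M21 gave coordinates and transcripts for 53669 symbols, and BLAST+ 2.17.0 found copies (95% identity over 50% of the length). R 4.3.3 was used. The values of 1 member are not reported here by name.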

Additional observations from a re-analysis of the deposited data

How the results depend on the processing

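Of 119 results on single members, 114 stayed on their side of the threshold with DESeq2 and 117 with RLE factors. The number was 113 without a filter, 105 with total counts, 91 with the GC correction and 115 with the replicate block. Among these, results that passed kept their direction, while those that passed in neither fit were counted whichever way they pointed. For all changes below the cause was not tested. With the GC correction, alone or with the replicate block, 19 members were lower under PlaB, Cox7b was at 0.31 and Cox8a at -0.14, and Cox6a1 between days 1 and 5 was at 0.76 (0.75 with the block).

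With total counts, 20 were lower from day 1 to day 5, 1 higher and 2 lower from day 1 to 2, 24 higher from day 3 to 4, 2 higher from day 4 to 5 (median -0.032), and 9 higher and 19 lower on day 1 against 2D PlaB. Without a filter, 5 were higher and 4 lower from day 1 to 2, and 3 higher from day 4 to 5. DESeq2 gave 9 higher from day 1 to 2 and 5 lower from day 3 to 4, and RLE factors gave 3 lower there. With the GC correction, 9 were lower from day 2 to 3 (median 0.16), 7 higher and 7 lower from day 3 to 4 (median -0.10), 15 higher from day 4 to 5, and 0 higher on day 1 against 2D PlaB. The median member level was 258 CPM with RLE factors and 229 CPM with total counts in 2D PlaB, and 196 CPM with total counts on day 1.

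Deviations of same-numbered libraries had r = -0.0179 in 2D and -0.262 to 0.179 in blastoids. Different-numbered blastoid libraries had r from -0.183 to 0.232. In 2D different-numbered libraries had the same value with the sign turned, since deviations within a group of 2 mirror each other. Low values of r cannot show that libraries were not paired, and the labels do not say. With the replicate block, 36 were higher and 9 lower under PlaB, 32 and 12 from day 1 to 5, 1 higher from day 1 to 2, 5 higher from day 4 to 5, and 1 higher on day 1 against 2D PlaB. With the block and the GC correction, 5 were lower from day 2 to 3 (median 0.14), 5 higher and 7 lower from day 3 to 4 (median -0.055), and 0 higher on day 1 against 2D PlaB.

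Leaving out 1 library gave 27 to 35 higher and 7 to 9 lower under PlaB, where the 1 library left in a group is assumed to vary like the other group, and 30 to 42 higher and 8 to 15 lower from day 1 to 5. It gave 0 to 18 higher and 1 to 2 lower from day 1 to 2, 1 to 15 higher and 6 to 23 lower from day 2 to 3 (median -0.34 to 0.18), and 10 to 24 higher and 0 to 10 lower from day 3 to 4 (median -0.11 to 0.47). It gave 1 to 16 higher and 6 to 16 lower from day 4 to 5 (median -0.011 to 0.27), 1 to 3 higher and 14 to 41 lower on day 1 against 2D PlaB, and 39 to 61 passing on any day. The counts for steps between days changed by over 1.5 times with single libraries left out, blastoid day 3 replicate 3 among them, whose removal was chosen after seeing the data. With 2 or 3 libraries a group, a member that did not pass is not shown to be equal between groups.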
